A study of Mus musculus with 8 samples.

Results

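Transcripts of 8 renal epithelial transcription factors, Pax2, Pax8, Hnf4a, Lhx1, Gata3, Tfcp2l1, Emx2 and Elf5, were examined in kidney tubuloids with and without induced inactivation of Pkd2. These 8 genes were taken by symbol from the 24063 gene symbols of the deposited count files. Pax8 was of particular interest because its promoter drives the inducible Cre system of the study, so that recombination depends on cells in which that promoter is active. All 8 libraries were made from mouse tubuloids of the genotype Pkd2fl/fl Pax8rtTA TetOCre mTmG, grown between layers of Matrigel from tubule fragments of kidneys labelled as postnatal day 7 to 10, an age range that differs from the younger one in the study's methods. All cultures, by those methods, were started in medium with a pulse of GDNF, a growth factor of the ureteric bud that signals through Ret and Gfra1, and with other growth factors throughout. DMSO (vehicle) or DOX (doxycycline, which activates rtTA and thereby Cre) was given for 3 days from culture day 3, RNA was taken on day 7, and each treatment had 4 libraries. They are named by treatment and library number: DMSO 3, DMSO 5, DMSO 15 and DMSO 20, and DOX 9, DOX 12, DOX 19 and DOX 21. The floxed alleles, rtTA, Cre and reporter were thus shared by both groups, and only DOX differed, so effects of doxycycline itself and of Pkd2 loss cannot be told apart. Recombination in this system is mosaic according to the study, and structures without E-cadherin did not respond to DOX.

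Nephron and collecting duct epithelia are specified by overlapping sets of DNA-binding factors. Pax2 and Pax8 are paired box factors that act early, in the nephric duct and in the epithelium that forms from mesenchyme, together with the LIM homeodomain factor Lhx1. Gata3, a zinc finger factor, and Emx2, a homeodomain factor, are required for the nephric duct and the ureteric bud, from which the collecting duct grows. Tfcp2l1, a grainyhead-like factor, and Elf5, an ETS factor, are factors of the mature collecting duct epithelium. Hnf4a, a nuclear receptor, is the factor of the proximal tubule.

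Mouse promoter sequence was available in RefSeq for all 8 genes. The 250 bases upstream of a start site, on GRCm38.p6, are shown for the 4 genes at both ends of the range of levels described below: the highest ones, Pax8 and Gata3, and the lowest ones, Elf5 and Hnf4a. Sequences read 5′ to 3′ on the gene's own strand, and capitals mark CG dinucleotides. Pax8 lies on the minus strand of chromosome 2 (gene at chr2:24420551-24475599), and its upstream window is chr2:24475600-24475849. The window of Gata3 is chr2:9878601-9878850 on the minus strand, that of Elf5 is chr2:103411848-103412097 on the plus strand, and that of Hnf4a, at the more downstream of its listed starts, is chr2:163546905-163547154 on the plus strand. The Pax8 sequence is that of the endogenous gene. The fragment used in the transgene was not analysed here.
Pax8 promoter: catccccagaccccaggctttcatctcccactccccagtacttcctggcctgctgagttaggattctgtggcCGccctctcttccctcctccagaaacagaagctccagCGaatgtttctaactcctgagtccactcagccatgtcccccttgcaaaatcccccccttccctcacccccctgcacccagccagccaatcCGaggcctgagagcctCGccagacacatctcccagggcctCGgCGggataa
Gata3 promoter: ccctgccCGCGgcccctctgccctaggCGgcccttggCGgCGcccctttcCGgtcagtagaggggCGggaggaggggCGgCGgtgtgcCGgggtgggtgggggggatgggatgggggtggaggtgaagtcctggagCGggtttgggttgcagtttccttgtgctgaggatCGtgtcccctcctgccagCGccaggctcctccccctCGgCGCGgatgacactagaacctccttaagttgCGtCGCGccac
Elf5 promoter: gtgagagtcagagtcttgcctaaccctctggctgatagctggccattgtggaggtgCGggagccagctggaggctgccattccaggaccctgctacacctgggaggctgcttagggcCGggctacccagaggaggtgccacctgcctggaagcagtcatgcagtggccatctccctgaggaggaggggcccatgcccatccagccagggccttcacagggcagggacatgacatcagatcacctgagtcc
Hnf4a promoter: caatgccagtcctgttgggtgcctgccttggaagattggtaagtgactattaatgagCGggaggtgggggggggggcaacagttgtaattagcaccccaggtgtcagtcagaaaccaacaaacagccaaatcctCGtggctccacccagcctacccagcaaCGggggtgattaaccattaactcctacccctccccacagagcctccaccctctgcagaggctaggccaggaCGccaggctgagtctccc
The Pax8 window held 6 CG dinucleotides, equal to the median of 6 over 32851 mouse promoter windows of this length, of which 92.1% held at least 1 (quartiles 2 and 16). The Gata3 window held 19, and those of Emx2 (24), Tfcp2l1 (16) and Lhx1 (26) were also CG-rich. The windows of Elf5 (2) and Hnf4a (4) shown here were below the median, while a second Elf5 start had 8. The 3 Pax2 starts ranged from 5 to 25. These counts describe the letters of the windows. No methylation or binding was measured.

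Summed transcript counts ran from 63922677 to 102716313 per library. In DMSO 20 and DOX 19 only 13243 and 13599 genes had a count, against 17054 to 17903 in the other 6 libraries, and values without these libraries are given where a result changed with them. By Y-linked genes DMSO 15 and DOX 21 were male, and by Xist the other 6 were female. The 10 pan-epithelial markers examined were all detected, with a summed level of 768 to 3647 TPM (transcript abundance per length, relative to the library) in DMSO and 1080 to 2360 TPM in DOX. All 12 stromal markers were detected as well, at 424 to 5631 TPM in DMSO and 911 to 1404 TPM in DOX, the highest sum being in DMSO 15. Among the 6 endothelial markers, Emcn stood at 22.1 to 160 TPM, whereas Pecam1 did not exceed 0.698 TPM and Cdh5 0.170 TPM in any library. Bulk RNA was measured, so fewer cells of a type and less RNA per cell cannot be told apart.

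Pax8 was the most abundant of the 8 factors and Hnf4a the least. Mean levels over the 8 libraries were 64.2 ± 30.7 TPM (SD, n = 8) for Pax8, 19.4 ± 10.5 TPM for Gata3, 9.15 ± 6.44 TPM for Emx2 and 4.51 ± 4.92 TPM for Tfcp2l1. Lhx1 (3.31 ± 3.35 TPM), Pax2 (1.67 ± 1.44 TPM), Elf5 (0.564 ± 0.827 TPM) and Hnf4a (0.175 ± 0.260 TPM) followed. Pax8 ranked 2826 among all 24063 symbols by mean TPM, and Hnf4a ranked 15861. The ranges of each pair of neighbours in this order overlapped. Within libraries, Pax8 exceeded Gata3, Gata3 exceeded Emx2 and Emx2 exceeded Tfcp2l1 in 8 of 8 libraries. The lower part of the order was less fixed, since Tfcp2l1 exceeded Lhx1, Lhx1 exceeded Pax2, and Elf5 exceeded Hnf4a in 5 of 8 libraries each. The order was unchanged when a single transcript per gene was used.

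**Figure D1:**
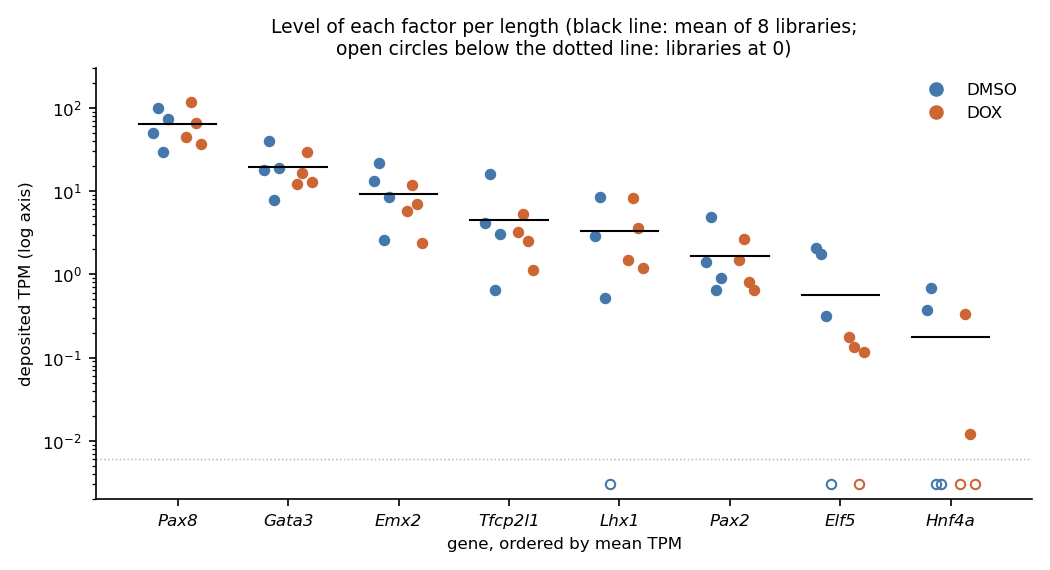
Level of each factor in the deposited TPM (log axis) for the 8 libraries, with DMSO in blue, DOX in orange and the mean of all libraries as a black line. Pax8 lies highest at a mean of 64.2 TPM, and open circles mark the libraries in which Lhx1 (1), Elf5 (2) and Hnf4a (4) had no count.

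Pax8 did not differ detectably between the treatments. Its level was 49.96, 98.8, 29.2 and 72.5 TPM in DMSO 3, 5, 15 and 20. In DOX 9, 12, 19 and 21 it was 44.2, 117, 64.9 and 37.0 TPM. The highest library belonged to DOX and the lowest to DMSO, and the ranges overlapped almost entirely. On the scale of normalised counts (counts divided by DESeq2 size factors) the means were 6566 ± 2441 (SD, n = 4) in DMSO and 6556 ± 2884 in DOX. The log2 fold change of DOX over DMSO was -0.0023 (SE 0.427), with a 95% interval from -0.84 to 0.83 (DESeq2 adjusted p = 0.999, edgeR adjusted p = 0.9997). A two-sided exact permutation test on log2 counts gave p = 0.971, where the smallest p that 70 assignments allow is 0.0286. The interval includes changes of up to about 0.83 in either direction, so equality was not shown.

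Pkd2, the floxed gene, was read beside Pax8 because the Pax8 promoter controls its deletion. Pkd2 stood at 25.01, 24.9, 24.4 and 37.1 TPM in DMSO 3, 5, 15 and 20 and at 19.0, 28.2, 26.7 and 21.3 TPM in DOX 9, 12, 19 and 21. Its log2 fold change by DESeq2 was -0.31 with an SE of 0.215 (adjusted p = 0.999), and the treatment ranges overlapped. When each library was left out it ran from -0.41 (without DMSO 5) to -0.20 (without DMSO 20). Reads over the whole transcript were counted, so this value does not isolate the deleted exons. By western blot the study reports less polycystin-2, the protein made from Pkd2, in tubuloids given DOX, though it was still detectable. Protein was not examined here.

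Among the nephric duct and ureteric bud factors, no difference passed the test. Pax2, the paralogue of Pax8, had 200.1, 543, 93.3 and 106 normalised counts in DMSO 3, 5, 15 and 20. It had 189, 277, 105 and 81.9 in DOX 9, 12, 19 and 21. DMSO 5 stood far above all the others, and the log2 fold change by DESeq2 was -0.53 with an SE of 0.716 (adjusted p = 0.999). Without DMSO 5 it was 0.30. Per length, Pax8 exceeded Pax2 by 20.4 to 80.6 times, with the smallest ratio in DMSO 5 and the largest ones in DMSO 20 and DOX 19.

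Lhx1 gave 377, 872, 67.2 and 0 normalised counts in DMSO 3, 5, 15 and 20, and 169, 782, 424 and 135 in DOX 9, 12, 19 and 21. The library at 0 was DMSO 20, where a count of 0 allows up to 0.0469 per 1000000 summed transcript counts (3 counts, counting error only). That total counts reads shared by transcripts more than once, so the limit per read would be higher. Lhx1 had the widest spread of the 6 factors with a mean of at least 100 normalised counts, with an SD of 3.16 on the log2 scale over the 8 libraries. Without DMSO 20 that SD was 1.36, below the 1.40 of Tfcp2l1. Its log2 fold change of 0.20 in DESeq2 (SE 1.37 and adjusted p = 0.999) became -0.25 without DMSO 20 and DOX 19.

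Gata3 gave 2701, 4764, 1175 and 2403 normalised counts in DMSO 3, 5, 15 and 20, and 1637, 1818, 4014 and 1707 in DOX 9, 12, 19 and 21. DOX 19 lay above the other DOX libraries, which were close together. The log2 fold change by DESeq2 was -0.27 with an SE of 0.505 (adjusted p = 0.999), and it was -0.71 without DMSO 20 and DOX 19 and 0.13 without DMSO 5. Emx2 gave 1613, 2100.2, 316 and 867 normalised counts in DMSO 3, 5, 15 and 20, and 631, 1068, 778 and 254 in DOX 9, 12, 19 and 21. Its log2 fold change of -0.84 in DESeq2 (SE 0.645 and adjusted p = 0.999) was negative under each of the 19 alternatives computed, and it was -0.45 without DMSO 5. The library kit does not mark strand, and genes on the opposite strand overlap both factors. Emx2os had 56 to 1288 counts per library beside Emx2, and 4930412O13Rik had 18 to 725 beside Gata3, so reads in the overlaps could have been assigned to either gene. Gata3 also overlaps 9230102O04Rik on its own strand (18 to 373 counts). Genes on the opposite strand overlap Pax8, Pax2, Hnf4a and Tfcp2l1 too. That of Pax8, Gm13415, was not counted, so any reads of it in shared stretches could not be told apart from Pax8. Of the counted ones, 1700039E22Rik beside Pax2 had at most 9 counts and Hnf4aos beside Hnf4a at most 4.

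The collecting duct factors had lower mean counts in DOX, and neither was called in the comparison of all 8 libraries. Tfcp2l1 gave 1793, 5535, 289 and 1088 normalised counts in DMSO 3, 5, 15 and 20, and 1239, 1699, 999 and 438 in DOX 9, 12, 19 and 21. The log2 fold change by DESeq2 was -0.99 with an SE of 0.797 (adjusted p = 0.999), which became 0.05 without DMSO 5, the library with the highest value. Without DMSO 15, its lowest library, the unadjusted p of Tfcp2l1 was 0.0447 and its adjusted p 0.535, and for Emx2 they were 0.0402 and 0.515.

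In the fit of all 8 libraries Elf5 had the largest log2 fold change, in size, of the 8 genes. It had 208, 139, 32.1 and 0 normalised counts in DMSO 3, 5, 15 and 20, and 16.1, 9.95, 0 and 10.5 in DOX 9, 12, 19 and 21. The zeros were in DMSO 20 and DOX 19, the libraries with few detected genes, and the DMSO library at 0 made the groups overlap. The log2 fold change over 8 libraries was -3.37 (SE 1.62, 95% interval -6.55 to -0.20), with unadjusted p = 0.0373 and DESeq2 adjusted p = 0.885. The edgeR quasi-likelihood test gave unadjusted p = 0.0855 and adjusted p = 0.999, and the exact permutation test gave p = 0.286. Without DMSO 20 and DOX 19, the remaining 3 DMSO libraries all lay above the 3 DOX libraries, as was the case, in either direction, for 9.38% of all genes tested. In that comparison the log2 fold change was -3.34 (SE 0.788), and DESeq2 called Elf5 lower in DOX with adjusted p = 0.0161, while edgeR gave adjusted p = 0.911. DESeq2 called 0.296% of genes there. Adjusted p over the 16 alternatives that gave one ran from 0.0161 to 0.99997. The level was low throughout, at most 2.04 TPM. The 2 Elf5 transcripts in the files received nearly the same reads, for example 111 and 113 counts in DMSO 3, and the sum used here counts shared reads for both. With 1 transcript, the log2 fold change was -3.34 and the adjusted p 0.811.

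Hnf4a was close to absent. It had 75.4 and 111 normalised counts in DMSO 3 and DMSO 5, 49.8 in DOX 12 and 2.26 in DOX 19, and no count in DMSO 15, DMSO 20, DOX 9 and DOX 21. Both treatments thus held libraries with and without the transcript. The upper limits that a count of 0 allows were 0.0305 to 0.0469 per 1000000 summed transcript counts in these 4 libraries. The log2 fold change of -1.84 had an SE of 2.82 (DESeq2 adjusted p = 0.999), and it was -5.98 without DOX 12 and -0.95 without DMSO 5. The count filter of edgeR left Hnf4a out of its main test.

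**Figure D2:**
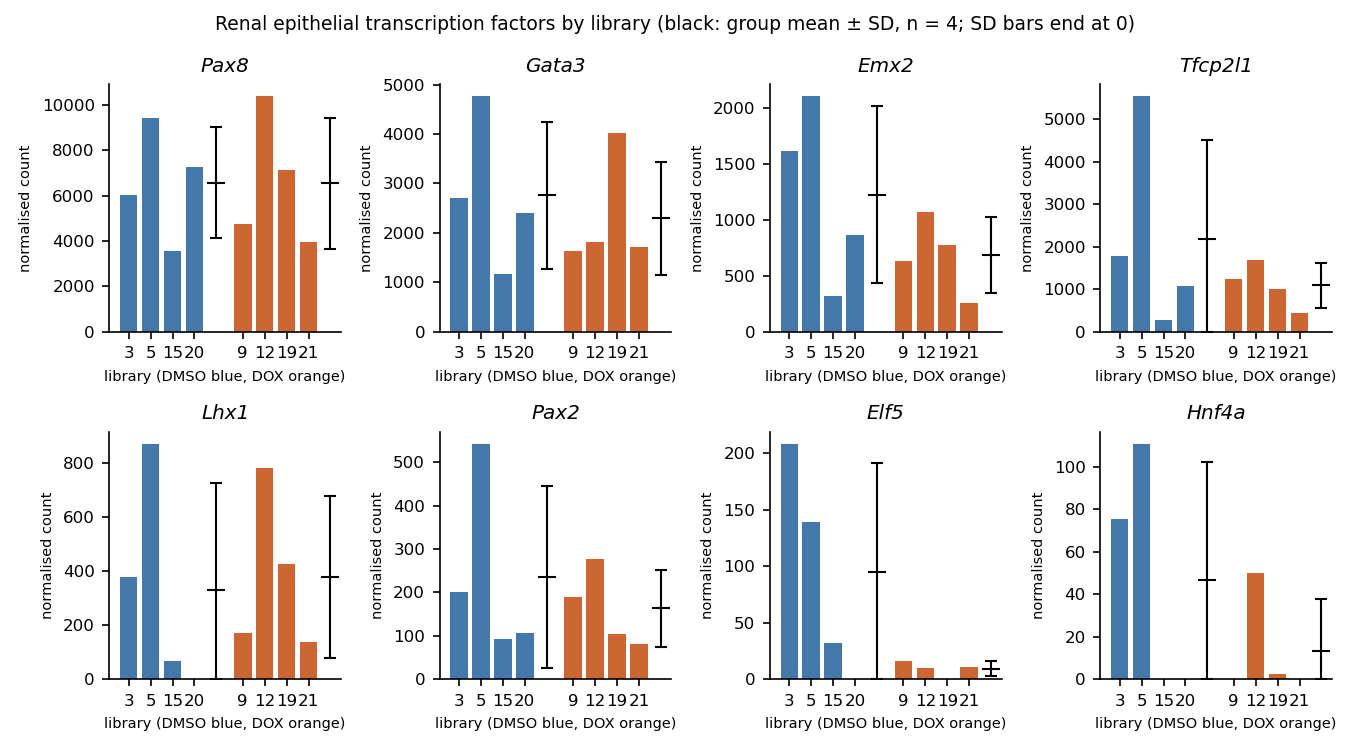
Normalised counts of each factor (y axes, each from 0) in the 4 DMSO (blue) and 4 DOX (orange) libraries, named by library number, with the group mean and SD in black beside each group. DMSO 5 is the highest library for 6 of the 8 factors, and the treatments overlap for every factor.

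In all, 0 of the 8 factors were called between DOX and DMSO (DESeq2, adjusted p at most 0.05 and at least 1.5-fold), in a comparison in which 0.147% of all genes were called. All 8 passed the filter on low counts that DESeq2 sets for itself. By edgeR 0 of the 7 factors it tested were called, and 0% of all genes. An unadjusted p under 0.05 was given by DESeq2 for 1 of 8 factors, Elf5, and for 4.67% of all genes, and by edgeR for 0 of the 7 and for 3.06% of all genes. The treatments did not overlap for 0 of 8 factors and for 2.45% of all genes. In direction, 7 of 8 factors had a negative log2 fold change, with a median of -0.69, against 10691 of 19268 genes and a median of -0.07 over all genes tested. DMSO 5 weighed on these directions, since without it 5 of the 7 factors tested had a positive log2 fold change, Pax2, Gata3 and Tfcp2l1 among them, and the median was 0.13. By limma-voom 6 of 7 were negative, with a median of -0.26.

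**Figure D3:**
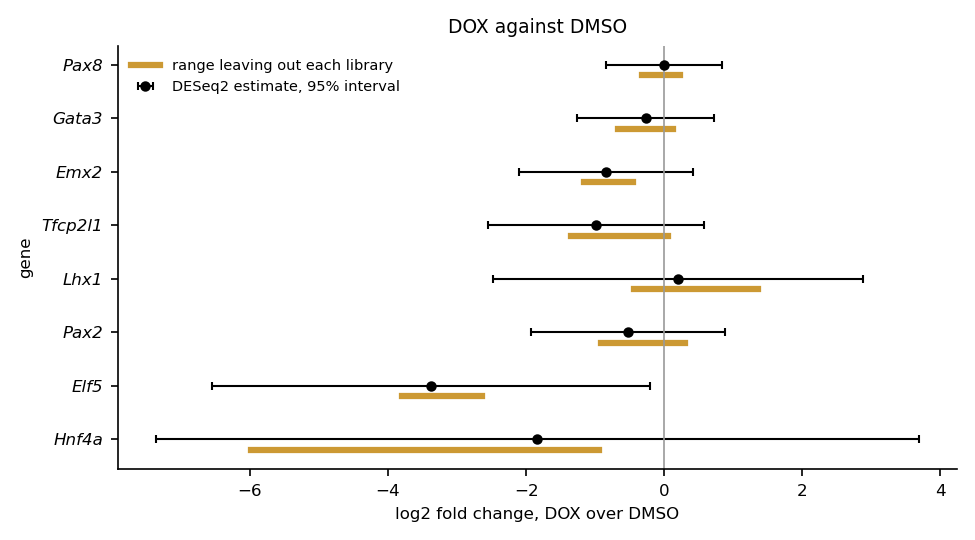
Log2 fold change of DOX over DMSO for each factor (x axis, 0 marked by a grey line), with the DESeq2 estimate and its 95% interval in black and the range of estimates when each library is left out in turn in ochre. The interval of Elf5 (-6.55 to -0.20) is the only one that leaves out 0, and the estimates of Pax8 stay between -0.31 and 0.22.

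Levels of the factors differed widely between libraries of the same treatment. DMSO 5 was the highest library for 6 of the 8 factors and among the highest 2 for all 8. DMSO 15 was at the lowest value for 4, tied at 0 with 3 other libraries for Hnf4a, and among the lowest 3 for 7. DOX 21 was above the median of no factor and, with the same tie, among the lowest 3 for 7. DMSO 15 and DOX 21 were also the only male libraries, and sex and other properties of these libraries cannot be told apart. DOX 12 was highest for Pax8 and DMSO 3 for Elf5. The SD of log2 normalised counts over the 8 libraries was 0.562 for Pax8, larger than that of 52.8% of the 13248 genes with a mean of at least 100 normalised counts, whose median SD was 0.534. It was 0.685 for Gata3, 0.932 for Pax2, 1.05 for Emx2 and 1.30 for Tfcp2l1, the last larger than that of 81.0% of these genes.

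Other cell markers moved across the same libraries. In DMSO 15 the mean log2 level of Cdh1 and Epcam, adhesion molecules of epithelial cells, was lowest at 11.9, and that of the stromal markers was highest at 14.5. DMSO 3 and DMSO 5 had the highest Cdh1 and Epcam levels, 14.7 and 14.4, and the highest levels of 12 collecting duct genes. Their part in the levels of the factors other than Pax8 was not tested.

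**Figure D4:**
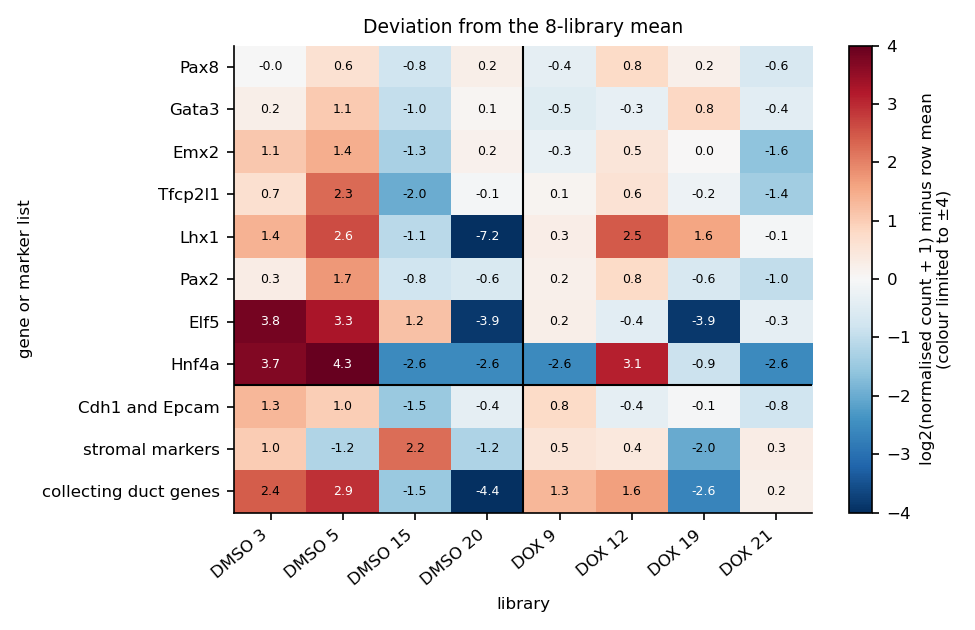
Deviation of each factor, and of the mean levels of Cdh1 and Epcam, of 12 stromal markers and of 12 collecting duct genes, from its own mean over the 8 libraries, in log2(normalised count + 1), with colour limited to ±4. DMSO 5 is above the mean for all 8 factors, and DMSO 15 is below it for 7 of them.

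The level of Pax8 was then set against the epithelial content of each library. The difference between log2 Pax8 and the mean log2 level of Cdh1 and Epcam was -2.16, -1.18, -0.10 and -0.19 in DMSO 3, 5, 15 and 20. It was -1.96, 0.30, -0.54 and -0.65 in DOX 9, 12, 19 and 21. DMSO 15, with the least Pax8, thus had the second highest value relative to the epithelial markers. The mean was -0.91 ± 0.97 (SD, n = 4) in DMSO and -0.71 ± 0.93 in DOX, a difference of 0.19 (exact permutation test, p = 0.771). Without DMSO 20 and DOX 19 it was 0.38. When each library was left out it ran from -0.22 (without DMSO 3) to 0.61 (without DOX 9), and it was -0.14 without DOX 12. It depended on the markers taken, being 0.39 against Krt8 and Krt18 (exact permutation test, p = 0.514) and 0.0077 against all 10 pan-epithelial markers.

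Across the 8 libraries, the relation of Pax8 to Pkd2 did not pass a test on either scale. On the log2 scale Pearson's r was 0.12 (permutation p = 0.776, adjusted over 3 relations 0.776) and Spearman's rho 0.12 (permutation p = 0.793), and r was 0.12 without DMSO 15 and DOX 21, the libraries farthest from the median of Pax8. With the Cdh1 and Epcam level r was 0.42 (permutation p = 0.293, adjusted 0.440) and rho 0.40 (permutation p = 0.327), and r changed to -0.42 without the same libraries, so this value rested on them. With the stromal markers r was -0.60 (permutation p = 0.115, adjusted 0.345) and rho -0.52 (permutation p = 0.197), and r was -0.30 without them. Without DMSO 20 and DOX 19 the values of r were -0.08, 0.48 and -0.65. In TPM the relation to Pkd2 had r = 0.51 (permutation p = 0.193, adjusted 0.224) and rho = 0.71 (permutation p = 0.0576, adjusted 0.173).

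**Figure D5:**
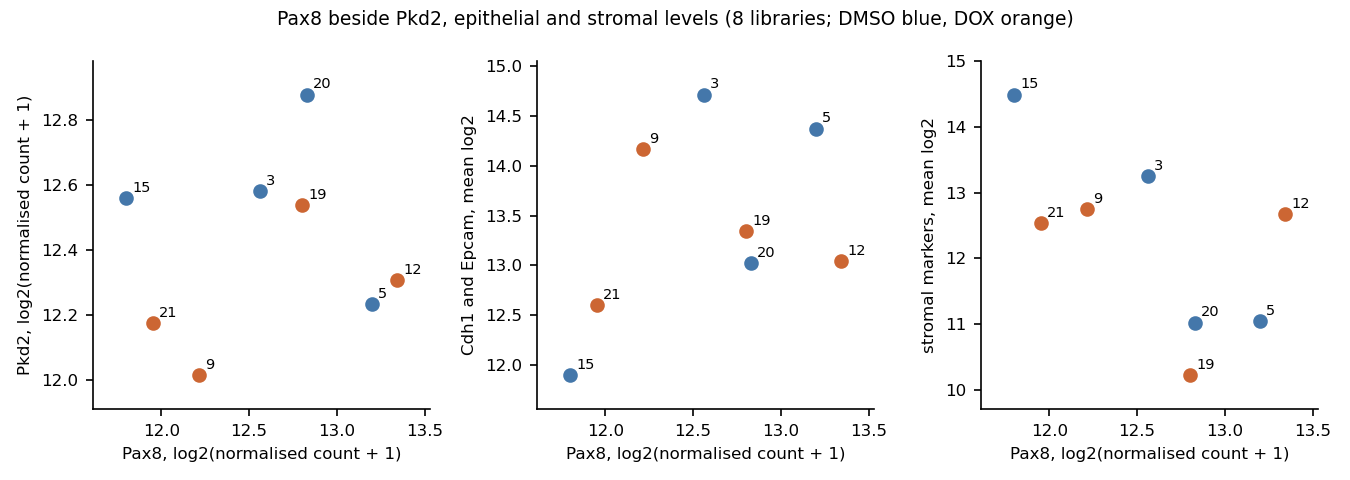
Pax8 (x axes) against Pkd2, the mean of Cdh1 and Epcam, and the mean of 12 stromal markers (y axes), all in log2(normalised count + 1), with DMSO libraries in blue and DOX libraries in orange, labelled by number. The points of Pkd2 are scattered (r = 0.12), and DMSO 15 and DOX 21 have the least Pax8.

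Of the paired box genes, Pax8 and Pax2 were the main ones. Pax1, Pax4, Pax5 and Pax7 had no count in any library, and Pax3, Pax6 and Pax9 did not exceed 0.769 TPM. In the GATA family Gata3 was followed by Gata2, a paralogue, at 15.7 ± 7.31 TPM in DMSO and 14.2 ± 4.18 TPM in DOX (SD, n = 4), while Gata1 had no count. Among 36 other transcription factors of renal epithelium, 35 were tested and Hmx2 had no count. None was called, beside 0.147% of all genes. A negative log2 fold change was found for 26 of 35, beside 10691 of 19268 genes tested. The median of the 35 was -0.52 (-0.09 without DMSO 5 and -0.18 by limma-voom). Elf3, an ETS factor related to Elf5, was the most abundant at 104 ± 82.5 TPM (SD, n = 8). Glis3, a zinc finger factor of the tubule whose loss gives cystic kidneys, had the only unadjusted p under 0.05 of the 35. Over all genes 4.67% had one. It had 1971 ± 559 normalised counts in DMSO and 987 ± 333 in DOX (SD, n = 4), a log2 fold change of -0.997 by DESeq2 (SE 0.365, unadjusted p = 0.00627 and adjusted p = 0.526).

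Genes that such factors are known for in each segment were listed beside them, and none was called. Over all genes, DESeq2 called 0.147% and gave 4.67% an unadjusted p under 0.05. For the proximal tubule, the segment of Hnf4a, 12 of 14 genes were tested, 8 had a negative log2 fold change and the median was -0.84 (-0.21 without DMSO 5 and 0.07 without DMSO 3). By limma-voom 5 of the 8 genes it tested were positive, with a median of 0.06. Its members were at unequal levels. The endocytic receptor Lrp2 did not exceed 0.0563 TPM and Slc34a1, the phosphate transporter, 0.0066 TPM, and Miox had no count. Gatm was the most abundant at 14.0 ± 8.18 TPM (SD, n = 8), the glucose transporter Slc5a2 stood at 5.17 to 23.7 TPM, and Ggt1 reached 15.2 TPM. Pck1, a gluconeogenic enzyme, had 0.590 ± 0.466 TPM in DMSO and 0.0392 ± 0.0582 TPM in DOX (SD, n = 4), a log2 fold change of -4.02 by DESeq2 (SE 1.29, unadjusted p = 0.00179 and adjusted p = 0.280).

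For the collecting duct, 8 of 12 genes had a negative log2 fold change, with a median of -1.04, and none had an unadjusted p under 0.05. The direction rested on single libraries and on the test, since the median was 0.07 without DMSO 5 and 0.28, over 8 genes tested, without DMSO 3. With all libraries kept, limma-voom gave 6 of 11 genes a positive log2 fold change, with a median of 0.18. St6gal1 was the most abundant at 94.0 ± 21.7 TPM (SD, n = 8), and Fxyd4, a regulator of the sodium pump, had a mean of 65.5 TPM and reached 306 TPM in DMSO 5. The sodium channel subunit Scnn1b reached 85.3 TPM, Calb1 68.1 TPM and the vasopressin receptor Avpr2 43.7 TPM, all in DMSO 5, while Aqp2, the vasopressin-regulated water channel, did not exceed 0.0287 TPM. Of 8 ureteric bud genes 5 had a negative log2 fold change, with a median of -0.38, which became 4 of 8 and 0.11 without DMSO 5. The GDNF co-receptor Gfra1 was highest of these at 145 ± 66.8 TPM. Ret, the GDNF receptor, had 7.70 ± 6.28 TPM in DMSO and 2.80 ± 2.90 TPM in DOX (SD, n = 4), a log2 fold change of -1.55 by DESeq2 (SE 0.748, unadjusted p = 0.0377 and adjusted p = 0.885).

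General epithelial and stromal markers had mostly negative log2 fold changes as well. Of 10 pan-epithelial markers 9 were negative, with a median of -0.61 (-0.11 without DMSO 3, -0.25 without DMSO 5 and -0.19 by limma-voom), and Krt19 was highest at 421 ± 222 TPM (SD, n = 8). Of 12 stromal markers 10 were negative, with a median of -1.07, which became 6 of 12 and -0.04 without DMSO 15 and -0.40 by limma-voom. Tagln was highest at 373 ± 549 TPM, and its log2 fold change was -1.86 by DESeq2 (SE 0.946, unadjusted p = 0.0497 and adjusted p = 0.943). Col1a1 had -1.85 by DESeq2 (SE 0.871, unadjusted p = 0.0335 and adjusted p = 0.873). Both were highest in DMSO 15. In the endothelial list 4 of 6 genes had a positive log2 fold change, with a median of 0.57 (0.32 without DMSO 20, 1.14 without DMSO 5 and 1.16 without DMSO 15). Over the 3 genes edgeR tested, 1 was positive and the median was -0.06, while by limma-voom all 3 were positive, with a median of 0.70. Emcn led this list at 69.8 ± 52.2 TPM. In the leukocyte list all 4 genes tested were negative, with a median of -1.68, and Cd68 led it at 7.01 ± 7.40 TPM. Without DMSO 15, 2 of 5 were positive and the median was -0.37. None had an unadjusted p under 0.05. The leukocyte sum was 15.9 to 29.4 TPM in DMSO and 0.0068 to 12.2 TPM in DOX (4.31 to 12.2 TPM without DOX 19), with Csf1r at most 0.431 TPM and Emr1 at most 0.0195 TPM. Ptprc reached 22.3 TPM in DMSO 5, Lyz2 13.3 TPM in DMSO 15 and Cd68 23.3 TPM in DMSO 20, so different genes led the sum in different DMSO libraries. In normalised counts the treatments did not overlap for 0 of the 6 leukocyte genes, beside 2.45% of all genes.

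Likeness across the 8 libraries was described by Pearson's r of log2 normalised counts, among genes with a mean of at least 100. The 3 genes most like each factor were the highest of 13247 compared with Pax8 and of 13248 compared with Hnf4a. Values of r picked this way are the maxima of a search, and they were not tested. The genes most like Pax8 were Endov, a nucleic acid repair enzyme (r = 0.96), Trim24, a chromatin reader (r = 0.96), and Pde2a, a cyclic nucleotide phosphodiesterase (r = 0.94). Of the other factors with such a mean, Emx2 (r = 0.82) and Tfcp2l1 (r = 0.81) were most like Pax8, followed by Pax2 (0.69), Gata3 (0.66) and Lhx1 (0.23). Hnf4a and Elf5, with lower means, had r = 0.70 and -0.09 with Pax8 (0.88 and 0.23 without DMSO 20 and DOX 19). The value of Lhx1 rested on its 0 in DMSO 20. Over the other 7 libraries Lhx1 was the factor most like Pax8 (r = 0.978), ahead of Tfcp2l1 (0.827), Emx2 (0.820), Pax2 (0.770) and Gata3 (0.667). Without DMSO 20 and DOX 19 the r of Lhx1 was 0.977, followed by Pax2 (0.892), Tfcp2l1 (0.854), Emx2 (0.832) and Gata3 (0.673). The genes most like Hnf4a were Casp8ap2 (r = 0.996), Nasp, a histone chaperone (r = 0.971), and Nfxl1 (r = 0.955). For Hnf4a the values rest on the libraries DMSO 3, DMSO 5 and DOX 12. All points share their libraries and size factors.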

How the data were processed

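RNA was poly-A selected and made into libraries with the SMART-Seq v4 kit, sequenced on 2 lanes, and aligned and counted by the authors with STAR and featureCounts on mm10 (GRCm38), per the labels. Versions are not given in the sources used here, nor is each library's lane. The authors deposited raw read counts, FPKM and TPM for 33068 transcripts. Here counts and TPM were summed by symbol, FPKM was not used, and groups came from the treatment labels. The study counts 4 cultures per group. Whether they came from separate animals is not given, so p-values measure the spread between these libraries.

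All genes were fitted with DESeq2 1.42.0 (Wald test, Benjamini-Hochberg adjustment, the study's tool and thresholds), with edgeR 4.0.16 quasi-likelihood and limma 3.58.1 voom as alternatives (R 4.3.3). Log2 values used a pseudocount of 1. The scripts were tested on simulated data, in which DESeq2 called genes that had not been changed, also where none had been. There edgeR called none of them, so an adjusted p from DESeq2 needs that from edgeR beside it. By edgeR quasi-likelihood the adjusted p was 0.999 for each of Pax2, Lhx1, Gata3, Emx2, Tfcp2l1 and Pkd2. For Glis3, Pck1, Ret, Tagln and Col1a1 only DESeq2 values are given, and edgeR called 0 genes in the comparison of all 8 libraries. Alternatives covered normalisation, count filters, Cook's filter, transcripts, covariates and each library left out. The members and lists were chosen with earlier results of these data known. Genes named were the 8 factors, Pkd2, the most abundant gene of each list, listed genes called or with unadjusted p under 0.05, and the 3 genes most like Pax8 and Hnf4a. Other listed genes given by their range or highest value, and the overlapping genes, were named after their values were seen. One further marker list is not reported here.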

Additional observations from a re-analysis of the deposited data

Results flagged for a closer look

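In the 18 groups of 4 values examined (each factor, and Pax8 relative to Cdh1 and Epcam, in DMSO and in DOX), 2 held a library far from the rest, where chance gives about 1 in 20 groups. Both were DOX 19, a library with few detected genes. Gata3 reached a log2 level of 11.97 there, while DOX 9, DOX 12 and DOX 21 had 10.68 to 10.83, a gap of 0.883 of the group's range. Its Elf5 count was 0 against log2 levels of 3.45 to 4.10, a gap of 0.843 of the range.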

How the results depend on the processing

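The number of factors called was 0 in all alternatives but the DESeq2 fit without DMSO 20 and DOX 19, where it was 1 (Elf5). Over all genes, the 25 calls became 0 with edgeR, with limma-voom, with edgeR without a count filter and with edgeR without DMSO 20 and DOX 19 (an alternative chosen after seeing the data). They became 16 with at least 10 counts in every library, 48 with Cook's filter off, 51 without DMSO 20 and DOX 19, 40 with low detection as covariate, 43 with sex as covariate, and 14 (without DMSO 3) to 75 (without DMSO 15) when each library was left out. The log2 fold change of Pax8, -0.0023, turned positive with TMM size factors (0.0038), with edgeR without a count filter (0.0038), without DMSO 20 and DOX 19 (0.027 by DESeq2, 0.0038 by edgeR) and with sex as covariate (0.017). It ran from -0.31 to 0.22 when each library was left out, being positive without DMSO 5, DMSO 20 (0.05), DOX 9 (0.12) or DOX 21 (0.18). Lhx1 turned negative without DMSO 20 and DOX 19 (-0.25 by DESeq2, -0.28 by edgeR) and without DMSO 15 (-0.14), DMSO 20 (-0.21) or DOX 12 (-0.44), and was 2.22 with limma-voom. When each library was left out, Lhx1 ran up to 1.35, and Pax2 ran from -0.91 to 0.30, Gata3 from -0.67 to 0.13 and Tfcp2l1 from -1.36 to 0.052, these 3 being positive without DMSO 5 only. Emx2 (-1.16 to -0.45), Elf5 (-3.80 to -2.64) and Hnf4a (-5.98 without DOX 12 to -0.95 without DMSO 5) stayed negative wherever they were fitted. The difference in Pax8 relative to Cdh1 and Epcam, 0.19, ran from -0.22 (without DMSO 3) to 0.61 when each library was left out, and was -0.14 without DOX 12. The cause of these changes was not tested. No paired analysis was possible because DMSO and DOX libraries share no number. Low counts limit Elf5 and Hnf4a, and 4 libraries per group with wide spread limit the rest.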
